A study of Mus musculus with 3 samples.

Results

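The potassium channel genes of the adult mouse heart are described here, chosen as all genes whose name on the array begins with Kcn. The array carried 87 such genes out of 28090 gene names, measured by 129 probes in 147 spots on each array. A probe was taken as detected where it was well above background, as the scanner software defines it, in at least 1 channel of all 3 arrays. By this rule 75 probes were detected, for 59 of the 87 genes, against 19178 genes of the whole array. The names of 112 of the probes were also found by accession in RefSeq and none differed, while 17 probes were named by the array alone.

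The study compared hearts of *Lrrc10*-/- mice, which lack the cardiac protein LRRC10, with hearts of wildtype (WT, *Lrrc10*+/+) mice. All animals were C57/BL6 mice of 2 months of age, and the labels name no treatment for either genotype. Each of the 3 two-colour arrays, here called replicates 1, 2 and 3, set RNA labelled with the dye Cy5, which by the sample labels came from *Lrrc10*-/- hearts, against RNA labelled with Cy3 from a WT heart pool. By the methods and the labels the RNA of 2 hearts was pooled in a channel, so no value below belongs to a single animal. Dyes were not swapped, so a dye effect on a probe and a difference between the genotypes cannot be told apart. The methods call the 3 arrays independent biological replicates, and neither they nor the labels say outright that each array had a WT pool of its own. If 1 pool served all arrays, the spread given below leaves out the spread between WT pools.

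*Lrrc10* went against the labels. Its processed signal, the background-subtracted and dye-normalised brightness, was 14283, 20828 and 17703 in Cy5 (labelled *Lrrc10*-/-) and 476.5, 442.6 and 352.3 in Cy3 (labelled WT) on replicates 1 to 3, a mean log2 ratio of 5.37 ± 0.41 (SD, n = 3 arrays; limma, adjusted p = 2.62e-04). Without replicate 2 the mean was 5.28 and the adjusted p 0.0916. Whether the probe lies in the deleted part of the gene is not given in the sources used here. *Nppa*, the natriuretic peptide gene that the study names as raised in *Lrrc10*-/- hearts, was brighter in Cy3 on every array. Its log2 ratios were -0.89, -0.61 and -0.82, so for *Nppa* the direction by label opposes the study's. Every direction below is therefore given by channel, and the genotype behind a channel is only what its label says. Each array held 43379 gene spots, of which 4 to 21 were left out as outliers. The median signal of an array was 126 to 172 in Cy3 and 125 to 174 in Cy5. The number of spots well above background was 28942 to 30269 in Cy3 and 30512 to 30810 in Cy5. None of the 129 potassium channel probes was saturated, whereas 7 of 8 ventricular myocyte markers were saturated on at least 1 array. All 8 of those markers were detected.

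Potassium channels carry the outward currents that end the cardiac action potential and hold the resting potential. Voltage-gated (Kv) channels open on depolarisation: the transient outward current shapes early repolarisation and delayed rectifiers complete it. In the mouse ventricle the fast transient outward current and several delayed rectifiers, Kv1.5 among them, dominate. Inward rectifiers set the resting potential, respond to G proteins in the atria, or open when ATP falls. Two-pore channels pass a background current, and calcium-activated channels link potassium flux to calcium. Accessory subunits alter gating and surface expression. RNA of whole hearts was measured, so fewer cells of a type and less RNA per cell cannot be told apart.

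No potassium channel gene passed the limma test after adjustment over all probes. Of the 79 potassium channel probes tested, those with a mean signal of at least 20, 0 had an adjusted p under 0.05 in either direction. The background was 0.00676% of 29606 tested probes brighter in Cy5 and 0% brighter in Cy3. At an unadjusted p under 0.05, 6 probes (7.59%) were brighter in Cy5, against 1.55% of all tested probes. They were both probes of *Kcnd2* and 1 each of *Kcnj3*, *Kcnk2*, *Kcnt2* and *Kcnv2*. Only *Kcnmb4* was brighter in Cy3 at that threshold, 1.27% against a background of 1.52%. The methods' t-test on the same values also gave 0 after adjustment, and before it 1 probe in Cy5 (1.27%, against 2.01% of all tested probes) and 2 in Cy3 (2.53% against 2.20%). The count changed without replicate 3. The probes of *Kcnd2*, *Kcnip4* and *Kcnt1* then passed in Cy5 and that of *Kcnj14* in Cy3, when 378 and 130 of all probes passed. The *Kcnj14* ratios left in that fit, -3.82 and 0.45, had opposite signs, the first from a Cy5 signal not well above background. Without replicate 1 or replicate 2 the count was again 0 in both directions.

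The methods describe a selection by a p under 0.05, a signal of at least 20 and a change of 1.2-fold or more in 1 direction on all 3 arrays. Here the p was that of the scanner software on each array, which the methods do not name. By this consistent selection 4 potassium channel probes were consistently brighter in Cy5, for *Kcnd2*, *Kcnj3*, *Kcnk2* and *Kcnt2*. That was 5.06% of the tested potassium channel probes, against 0.405% of all tested probes. In Cy3 it took 0 of the 79 probes, against 0.51% of all. With 2 arrays the background rose as well. The selection took 9 probes in Cy5 without replicate 2 (11.4%, against 1.94% of all tested probes), 7 without replicate 3 (8.86% against 3.96%) and 4 without replicate 1 (5.06% against 2.25%). In Cy3 it took 2 probes each time (2.53%, against 2.15%, 2.25% and 1.49% of all). By the sign alone, with the brightest detected probe standing for a gene, 8 of the 59 detected genes (13.6%) had the higher signal in Cy5 on each of the 3 arrays, against 9.59% of all detected genes. They were *Kcna5*, *Kcnd2*, *Kcne4*, *Kcnj3*, *Kcnk2*, *Kcnk6*, *Kcnt2* and *Kcnv2*. Another 6 genes (10.2%) had it in Cy3, against 12.1% of all: *Kcna4*, *Kcnd3*, *Kcnmb2*, *Kcnmb4*, *Kcnn1* and *Kcnq1*. The shares by sign alone lay near the background. The split depended on the dye normalisation: with normexp and median centring in place of loess, which shifted the median over the tested probes to 0.15, it was 24 in Cy5 (40.7%, against 45.2% of all detected genes) and 7 in Cy3 (11.9% against 7.35%). With normexp and loess it was 11 (18.6% against 16.5%) and 6 (10.2% against 16.1%). The design of 3 arrays allows no two-sided exact sign-flip p below 0.25 for a single gene.

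*Kcnd2* had the largest mean log2 ratio of Cy5 over Cy3 among the brightest detected probes of the family. It encodes Kv4.2, a pore subunit of the fast transient outward current. Its processed signal was 4825, 7581 and 5193 in Cy5 (labelled *Lrrc10*-/-) and 1556, 4810 and 1669 in Cy3 (labelled WT) on replicates 1 to 3. The 3 Cy5 values all lay above their Cy3 partners, but the lowest Cy5 value barely exceeded the highest Cy3 value, which came from replicate 2. The log2 ratios were 1.63, 0.66 and 1.64, with a mean of 1.31 ± 0.57 (SD, n = 3), a ratio of 2.48. The 95% interval of the mean ran from 0.75 to 1.87 (limma, adjusted p = 0.783). A second *Kcnd2* probe, with a mean signal of 214, gave log2 ratios of 1.00, 0.26 and 1.22, all in the same direction and each lower than the first probe's. On both probes replicate 2 showed the smallest difference.

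*Kcnd3*, which encodes Kv4.3, another pore subunit of the fast transient outward current, went the opposite way. Its signal was 334 in Cy5 against 488 in Cy3 on replicate 1, 428 against 558 on replicate 2, and 264 against 357 on replicate 3. All arrays gave a similar ratio, with log2 values of -0.54, -0.38 and -0.43 and a mean of -0.45 ± 0.08 (n = 3; limma, adjusted p = 1.00). The spread was small beside the mean, but the scanner software's p on replicate 2 was 0.067, so *Kcnd3* missed the consistent selection. This direction depended on the dye normalisation. After normexp correction with loess the mean was -0.10, and with each array centred on its median, without loess, it was 0.10. In the latter setting the median over all detected genes was 0.20, so *Kcnd3* still lay below it. *Kcnd2* had no such change of sign under any of the 11 alternatives, with means from 1.14 to 1.70, and its adjusted p was 0.0174 without replicate 3.

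The opposite signs of the Kv4 pore genes *Kcnd2* and *Kcnd3* are the reason for showing their promoters. They are taken from RefSeq on GRCm38.p6, as the 250 bases before the annotated start on the plus strand. The *Kcnd2* promoter lies at chr6:21215096-21215345 and that of *Kcnd3* at chr3:105451640-105451889. Capitals mark a match to the Sp1 motif GGGCGG on either strand.
Kcnd2: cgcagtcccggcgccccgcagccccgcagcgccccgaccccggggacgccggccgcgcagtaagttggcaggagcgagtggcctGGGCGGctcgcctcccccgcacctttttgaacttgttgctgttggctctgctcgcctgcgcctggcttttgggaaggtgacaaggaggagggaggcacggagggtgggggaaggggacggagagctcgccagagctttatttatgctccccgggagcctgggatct
Kcnd3: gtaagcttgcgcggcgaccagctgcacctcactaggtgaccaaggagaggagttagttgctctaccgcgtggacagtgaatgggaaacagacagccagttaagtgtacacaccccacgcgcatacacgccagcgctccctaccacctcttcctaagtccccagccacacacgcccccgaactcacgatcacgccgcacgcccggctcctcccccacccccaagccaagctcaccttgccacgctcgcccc
GC content was 68.8% for *Kcnd2* and 62.8% for *Kcnd3*, against a median of 52.4% over 32841 mouse promoters of this length. The Sp1 motif stood in 32.7% of all those promoters and in 8 of the 17 named potassium channel genes with a promoter entry (47.1%). The Iroquois motif ACANNTGT, which reads the same on both strands, was held by 6.31% of all promoters and by 0 of the 17. The TATA motif TATAAA, searched on both strands, was held by 12.4% of all promoters and by 1 of the 17, *Kcnj9*. These matches describe letters in the windows only.

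The remaining genes of the transient outward current did not hold 1 size on all arrays. *Kcna4*, which encodes the pore subunit Kv1.4 of the slow component, had log2 ratios of -0.31, -1.11 and -0.08, a mean of -0.50 ± 0.55. *Kcnip2* encodes KChIP2, the calcium-binding subunit that Kv4 channels need for full current. Its signals were 984, 1509 and 568 in Cy5 and 1492, 2340 and 268 in Cy3, giving log2 ratios of -0.60, -0.63 and 1.08. The channels overlapped and replicate 3 reversed the sign, so that the mean of -0.05 ± 0.98 describes none of the arrays. *Kcnd1*, the fifth gene of the group, was not detected. The related KChIP genes *Kcnip3* and *Kcnip4* are known mainly from neurons. *Kcnip4* had 2.09, 1.37 and -0.83, with a Cy3 signal well above background on 2 of 3 arrays, and *Kcnip3* had 0.44, 0.47 and -0.10.

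**Figure D1:**
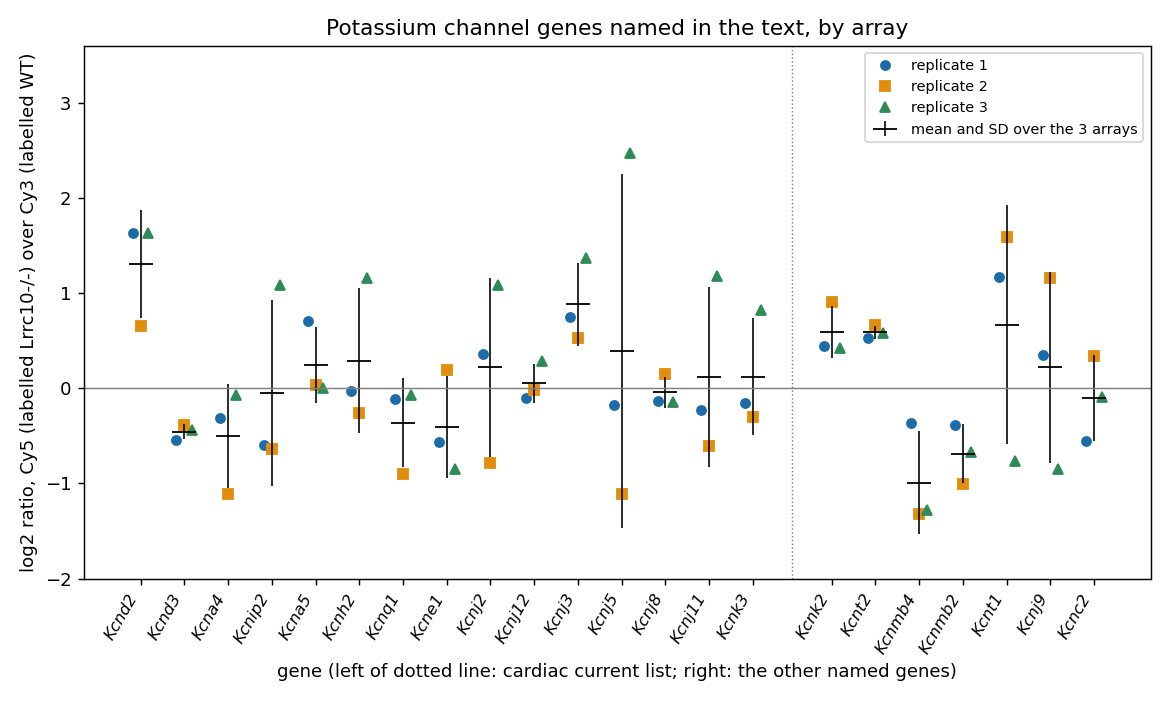
Log2 ratio, Cy5 (labelled *Lrrc10*-/-) to Cy3 (labelled WT), on each of the 3 arrays for the named genes, one symbol per replicate, with the mean and SD over the arrays as a black dash and line. *Kcnd2* lies between 0.66 and 1.64 and *Kcnd3* between -0.54 and -0.38, while *Kcnj5* spreads from -1.12 to 2.47. The highest *Kcnj5* value was taken against a Cy3 signal not well above background.

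The delayed rectifiers showed no common direction. *Kcna5* encodes Kv1.5 and had log2 ratios of 0.71, 0.03 and 0.0048, positive on all arrays but near 0 on replicates 2 and 3. Its mean of 0.25 fell to 0.02 without replicate 1. *Kcna1*, *Kcna2* and *Kcnb2*, which encode Kv1.1, Kv1.2 and Kv2.2, had means of -0.52 ± 0.52, -0.05 ± 0.06 and 0.23 ± 1.24, and each changed sign between arrays. The cytoplasmic beta subunit genes *Kcnab1* and *Kcnab2* had means of 0.50 ± 0.49 and -0.0011 ± 0.016.

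*Kcnh2* and *Kcnq1* encode the pore subunits of the rapid and slow delayed rectifiers, currents that carry much repolarisation in larger mammals and little in the adult mouse ventricle. *Kcnh2* had log2 ratios of -0.03, -0.26 and 1.16. *Kcnq1* had -0.11, -0.90 and -0.07, negative on all arrays but near 0 on 2 of them, and its mean of -0.36 ± 0.47 became 0.34 under the same median centring. *Kcne1*, the accessory subunit that slows KCNQ1 channels, had -0.56, 0.19 and -0.85. The other Kcne genes detected were *Kcne1l*, *Kcne3* and *Kcne4*, with means of 0.20, 0.10 and 0.29, and *Kcne2* was not detected.

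Among the detected inward rectifier (Kcnj) genes, only *Kcnj3* kept 1 sign on all arrays by the processed signals of the brightest probe. It encodes Kir3.1 (GIRK1), the subunit that forms the acetylcholine-activated atrial channel together with Kir3.4. Its signals were 1920, 2770 and 1174 in Cy5 and 1139, 1919 and 453.7 in Cy3. Cy5 was the brighter channel of each array, though the values of both channels overlapped across arrays. The log2 ratios were 0.75, 0.53 and 1.37, with a mean of 0.88 ± 0.44, a 95% interval from 0.37 to 1.40 (limma, adjusted p = 1.00). The second *Kcnj3* probe gave 0.45, -0.25 and 0.24, a mean of 0.15 ± 0.36, and so did not keep the sign. The brighter probe was named *Kcnj3* by the array alone, while the second was also found as *Kcnj3* by accession in RefSeq.

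*Kcnj5* encodes the partner subunit Kir3.4 (GIRK4). Its signals were low, at 94.6, 99.7 and 41.0 in Cy5 and 106.5, 216.1 and 7.38 in Cy3, and in Cy3 it was well above background on 2 of 3 arrays. The log2 ratios of -0.17, -1.12 and 2.47 changed sign between arrays, and the last was taken against a Cy3 signal not well above background. By its brighter probe *Kcnj3* was also highest on replicate 3, whereas its second probe was highest on replicate 1.

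Some atrial markers also differed between arrays. Of the 6 atrial markers, 5 were detected and *Bmp10* was not. Their summed signal was 45391 to 88017 in Cy5 and 78986 to 125922 in Cy3, most of it from *Nppa*. *Myl7* and *Sln*, which encode the atrial myosin light chain and sarcolipin, had log2 ratios of 3.41 and 3.69 on replicate 2 and of -1.27 and -1.15 on replicate 3. *Myl4*, another atrial myosin light chain gene, had 1.41 and 0.23 there. *Nppa* was negative on both, and *Nr2f2*, an atrial transcription factor gene, had -0.34 and -0.26. The 5 detected markers thus did not move together. *Kcnj3*, by both probes, and *Kcnj5* were higher on replicate 3 than on replicate 2, while *Myl4*, *Myl7* and *Sln* were lower. The part of atrial tissue in the *Kcnj3* and *Kcnj5* values was not tested.

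The strong inward rectifiers that hold the resting potential did not keep 1 sign on all arrays. *Kcnj2*, which encodes Kir2.1, had log2 ratios of 0.36, -0.78 and 1.08. *Kcnj12*, which encodes Kir2.2, had -0.10, -0.02 and 0.28. *Kcnj4*, which encodes Kir2.3, had -0.17, 0.75 and 0.12. *Kcnj14*, which encodes Kir2.4, had -3.82, 0.45 and 0.17, and on replicate 1 its Cy5 signal was not well above background. The ATP-sensitive pore genes *Kcnj8* (Kir6.1) and *Kcnj11* (Kir6.2) had -0.13, 0.15 and -0.14, and -0.22, -0.61 and 1.19.

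*Kcnj8* stayed near 0 by both of its probes, with no log2 ratio beyond 0.22 in size on any array. Its signals ran from 16883 to 27645 in Cy5 and from 18591 to 24951 in Cy3, which overlapped throughout. Its mean was -0.04 ± 0.16, with a 95% interval from -0.46 to 0.38 (limma, adjusted p = 1.00). An interval of this width does not show that the channels were equal. *Kcnj10*, *Kcnj15* and *Kcnj16* had means of 0.23 ± 1.13, -0.07 ± 0.39 and 0.05 ± 0.77.

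Of the 11 two-pore genes, 7 were detected. *Kcnk3* encodes TASK-1, a background channel of cardiac myocytes, and had log2 ratios of -0.15, -0.30 and 0.83. Its second probe gave -0.20, -0.46 and 0.86, and these probes were the pair with the smallest difference in the family, 0.077 on average.

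*Kcnk2* encodes TREK-1, a two-pore channel opened by membrane stretch and by arachidonic acid. Its signals were 170, 333 and 406 in Cy5 against 125, 177 and 302 in Cy3. Cy5 was brighter on every array, with log2 ratios of 0.45, 0.91 and 0.43, a mean of 0.59 ± 0.27 and a 95% interval from 0.05 to 1.14 (limma, adjusted p = 1.00). With normexp correction and loess the mean was 0.34. *Kcnk6*, which encodes TWIK-2, was also positive on all arrays, at 0.19, 0.36 and 0.02. The other two-pore genes, *Kcnk4*, *Kcnk10*, *Kcnk12* and *Kcnk13*, had means between -0.21 and 0.52 and each changed sign between arrays.

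*Kcnt2* encodes Slick, a sodium-activated channel. It gave the narrowest spread of the selected genes. Its signals were 151, 178 and 168 in Cy5 and 104.5, 112 and 113 in Cy3, and here the channels did not overlap. The log2 ratios were 0.53, 0.66 and 0.58, with a mean of 0.59 ± 0.07 (limma, adjusted p = 1.00). The second *Kcnt2* probe gave 0.43, -0.15 and -0.13, so the consistent difference was seen with 1 of 2 probes. With normexp correction and loess the first probe's mean fell to 0.19, and *Kcnt2* left the consistent selection.

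The probes that carried the selection are identified by the first 30 of their 60 bases, as the array files give them, because probes of 1 gene gave different answers.
Kcnd2, brighter probe: aaatatactgtgttggtggtgaatgacttt
Kcnd2, dimmer probe: gatcagatgtgtggagagaactccactatc
Kcnj3, brighter probe: ggaagctgcatagatcatttagtccaacac
Kcnj3, dimmer probe: tttggctgataagataatcctccctatgaa
Kcnk2: tttttaaaggcagaagaagacatgagcaca
Kcnt2, brighter probe: ccaccttattccccatacataggaagttca
Kcnt2, dimmer probe: cgaagcactctggtaaaactgcagaaaaaa
The longest run of bases that the full probes of a pair shared was 5 for *Kcnd2* and *Kcnj3* and 7 for *Kcnt2*, so the probes of a gene read different stretches of it.

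**Figure D2:**
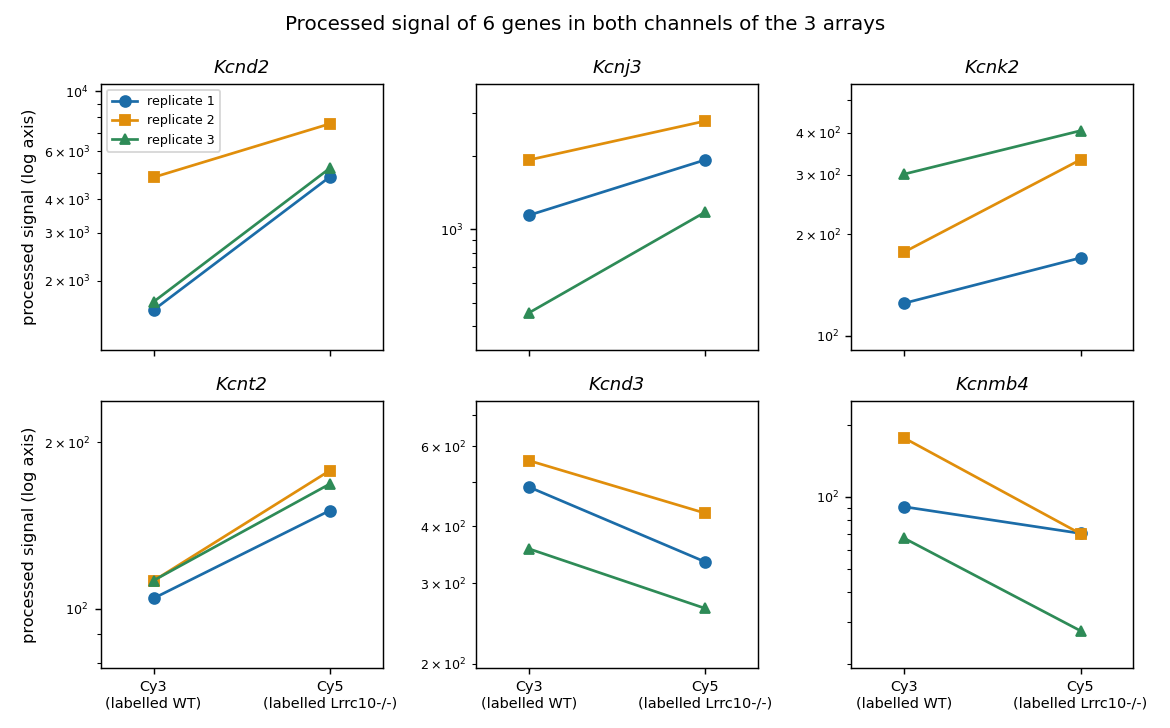
Processed signal (log axis) of 6 genes in Cy3 (labelled WT) and Cy5 (labelled *Lrrc10*-/-), with a line joining both channels of each array. All lines rise for *Kcnd2*, *Kcnj3*, *Kcnk2* and *Kcnt2* and all fall for *Kcnd3* and *Kcnmb4*, and the Cy3 signal of *Kcnd2* ranges from 1556 to 4810.

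The calcium- and sodium-activated genes other than *Kcnt2* varied by array. *Kcnt1*, which encodes the related sodium-activated channel Slack, had log2 ratios of 1.17, 1.60 and -0.76 with a brightest probe at 552, 408 and 2258 in Cy3 and 1241, 1232 and 1330 in Cy5. Relative to the median of all detected genes in the same channel and array, its log2 level was 0.83, 0.42 and 1.10 in Cy5 and -0.34, -1.16 and 1.80 in Cy3, so the Cy3 level had the wider range. Its dimmer probe gave 0.02, 0.16 and -0.23, the largest disagreement of any pair, 1.04 on average. Without replicate 3 the brightest *Kcnt1* probe had a mean of 1.38 (limma, adjusted p = 0.00136), a call that its dimmer probe does not share.

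*Kcnn1* and *Kcnn2* encode the small-conductance calcium-activated channels SK1 and SK2. *Kcnn1* was brighter in Cy3 on all arrays by nearly the same amount, with log2 ratios of -0.37, -0.30 and -0.29 and a mean of -0.32 ± 0.04 (limma, adjusted p = 1.00). Its direction also depended on the normalisation, with a mean of -0.10 after normexp and loess and of 0.18 with median centring and no loess. In the latter setting the median over all detected genes was 0.20. *Kcnn2* was printed in 10 spots on each array, which gives the spread of repeated spots within an array. Its mean log2 ratio was 0.23, -0.32 and 0.46 on replicates 1 to 3, and the SD among the 10 spots was 0.05, 0.04 and 0.05. *Kcnn4*, the intermediate-conductance channel gene of blood and immune cells, changed sign between arrays, with an SD of 0.92. *Kcnj6*, also printed 10 times but not detected, had spot SDs of 0.81, 0.83 and 0.99.

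The large-conductance (BK) channel pore gene *Kcnma1* was not detected. Of its accessory genes *Kcnmb1*, *Kcnmb2* and *Kcnmb4* were detected, all at low signal. *Kcnmb4* had signals of 70.4, 70.1 and 27.6 in Cy5, where it was well above background on 2 of 3 arrays, and of 90.9, 176 and 67.1 in Cy3. Its log2 ratios were -0.37, -1.33 and -1.28, a mean of -0.99 ± 0.54 with a 95% interval from -1.71 to -0.27 (limma, adjusted p = 1.00). *Kcnmb2* had -0.38, -1.01 and -0.67, a mean of -0.69 ± 0.31. With normexp correction and loess the means moved towards 0, to -0.18 for *Kcnmb4* and -0.056 for *Kcnmb2*. *Kcnmb1*, the smooth muscle subunit, had 0.14, -0.65 and 0.45.

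Silent Kv subunits, which form no channel alone but modify Kv2 channels, were mostly not detected, with 3 of 9 measured. *Kcnv2* had log2 ratios of 0.83, 0.36 and 0.55, a mean of 0.58 ± 0.24 (limma, adjusted p = 1.00). *Kcng2* had -0.21, -0.65 and 0.38, and *Kcns3* 0.95, 0.75 and -0.55. *Kcnv2* and *Kcnn1* fall outside the rule for named genes and are described because their sign held on all arrays by the processed signals.

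Of the other Kv genes, 9 of 17 were detected and 0 kept 1 sign on all arrays by the brightest probe. Their means ran from -0.25 for *Kcnh3* to 0.17 for *Kcnq3*. *Kcnc2*, which encodes a Kv3 channel of fast-firing neurons, had log2 ratios of -0.56, 0.34 and -0.09 by its brightest probe and was well above background in Cy3 on 2 of 3 arrays. Its other probes were positive on all arrays, with means of 0.63 and 0.70, so its probes disagreed in sign. *Kcnj9*, which encodes the neuronal subunit GIRK3, had 0.35, 1.16 and -0.84 by its brighter probe and -0.12, -0.70 and -0.13 by the other.

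Neuron and glia markers were detected for 4 of 6 genes, *Th* not among them, with summed signals of 3174 to 5153 in Cy5 and 3385 to 5795 in Cy3. Their part in the *Kcnc2* and *Kcnj9* values was not tested. *Kcnq1ot1*, an antisense non-coding RNA of the *Kcnq1* locus and not a channel subunit, entered by its name. It had log2 ratios of -0.27, 0.90 and -0.37, and its other detected probes, 2 of 5, also peaked on replicate 2.

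Of the detected genes, 14 had more than 1 detected probe, giving 18 pairs. In 8 of the 18 pairs both probes had the same sign on all 3 arrays. The median of the mean absolute difference between the log2 ratios of a pair was 0.51. The median SD over arrays, a different measure taken over all 59 detected potassium channel genes, was 0.52.

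**Figure D3:**
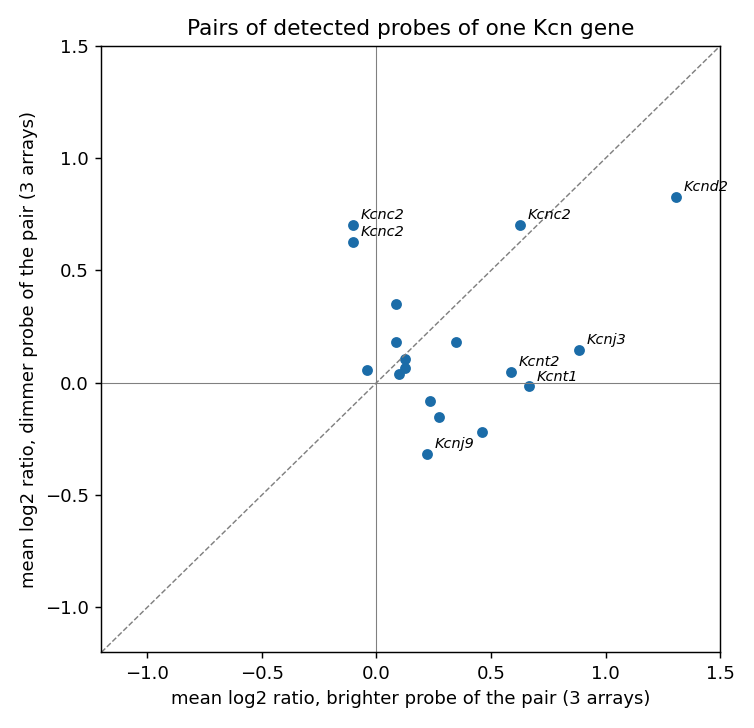
Mean log2 ratio over the 3 arrays of the dimmer against the brighter probe for the 18 pairs of detected probes of 1 gene, with equality as the dashed line. The *Kcnd2* pair, at 1.31 and 0.83, lies in the upper right, while *Kcnj3*, at 0.88 and 0.15, *Kcnt2*, at 0.59 and 0.05, and *Kcnt1*, at 0.67 and -0.01, lie well under the line.

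The median log2 ratio over the 59 detected genes was 0.06, with single genes from -1.07 to 1.31, against -0.01 over all detected genes. The lowest value was that of *Kcnj14*, whose log2 ratio of -3.82 on replicate 1 came from a Cy5 signal not well above background. In 48 of 59 genes (81.4%) the SD over arrays was larger than the mean in size, against 80.4% of all detected genes. The median SD was 0.52 for potassium channel genes and 0.36 for all.

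The spread followed the arrays. Of the 59 genes, 40 (67.8%) had opposite signs on replicates 2 and 3, against 55.1% of all detected genes. Across these genes, which share 3 arrays and are not independent, the log2 ratios of replicates 2 and 3 had a correlation of -0.34, those of replicates 1 and 2 of 0.27 and those of replicates 1 and 3 of 0.01. Over all detected genes the correlation of replicates 2 and 3 was -0.16.

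On replicate 3 the genes of the cardiac currents and the remaining members lay on opposite sides of 0 by their medians. A list of 16 genes that carry the cardiac currents was detected in full, and 0 of its genes passed the adjusted test. Its median log2 ratio was -0.12, -0.28 and 0.70 on replicates 1 to 3, while the other 43 detected genes had medians of 0.10, 0.36 and -0.27. On replicate 3, 7 of the 16 genes had a log2 ratio of at least 1, and 0 of the other 43 did, against 2.16% of all detected genes. These 7 were *Kcnd2*, *Kcnh2*, *Kcnip2*, *Kcnj11*, *Kcnj2*, *Kcnj3* and *Kcnj5*. The *Kcnj5* ratio there was taken against a Cy3 signal of 7.38, not well above background, so it was detected on that array by Cy5 alone. On replicate 2 the counts were 0 of 16 and 4 of 43, against 5.64% of all detected genes, and on replicate 1 they were 1 of 16 and 4 of 43, against 2.40%. The list was chosen with earlier results of these data known, and the split by array was seen in the values, so these counts are a description.

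**Figure D4:**
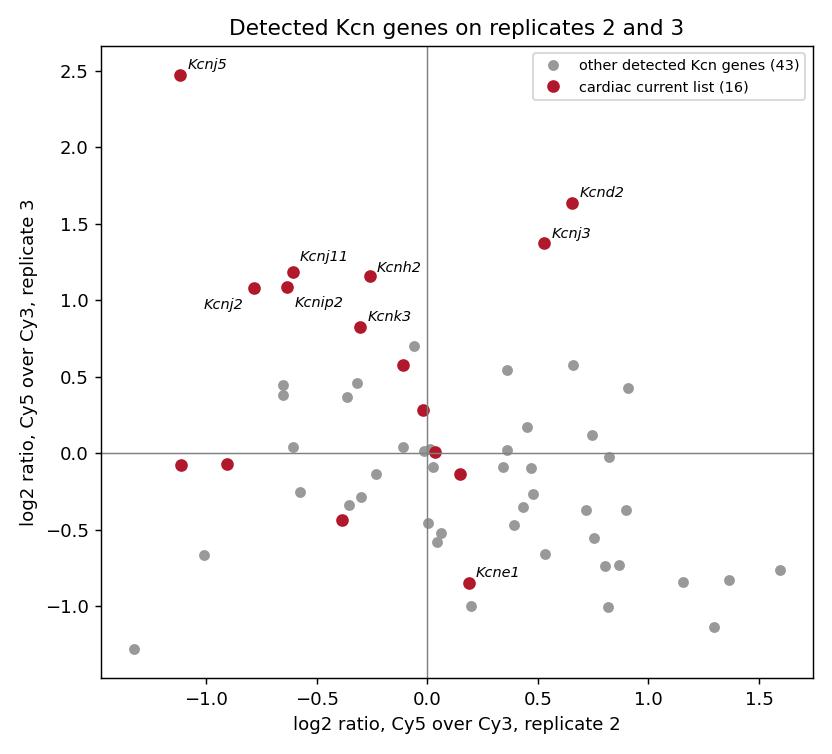
Log2 ratio (Cy5 over Cy3) on replicate 3 against replicate 2 for the 59 detected genes, with the 16 cardiac current genes in red and the other 43 in grey. At or above 1 on replicate 3 lie 7 red points and no grey point, and 40 of the 59 points lie in the quadrants of opposite sign. The highest red point, *Kcnj5*, rests on a Cy3 signal not well above background on replicate 3.

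Set against the median of all detected genes in the same channel and array, each channel's level can be followed over the arrays. The 7 genes were chosen by their ratio on replicate 3, so a Cy3 level that is low beside Cy5 there follows from the choice and is a description. In Cy3 (labelled WT), replicate 3 was the lowest array for 6 of those 7 genes, all but *Kcnd2*. *Kcnip2* stood at 1.10, 1.36 and -1.27 in Cy3 on replicates 1 to 3, and at 0.50, 0.71 and -0.13 in Cy5, all as log2 levels relative to that median. *Kcnj11* stood at 2.04, 2.58 and 0.56 in Cy3 and at 1.81, 1.96 and 1.81 in Cy5. *Kcnh2* stood at 0.71, 1.08 and -0.90 in Cy3 and at 0.68, 0.80 and 0.32 in Cy5. For the same 6 genes replicate 3 was also the lowest array in Cy5, for *Kcnj11* only barely.

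*Kcnd2* differed from them. Its level was 2.79, 3.04 and 3.06 in Cy5, the narrower channel, and 1.16, 2.40 and 1.37 in Cy3, where replicate 2 was the high array. Over the 16 cardiac genes the median SD of the relative level was 0.17 in Cy5 and 0.58 in Cy3, and the Cy3 spread was the larger in 15 of 16. Over all detected genes the medians were 0.21 and 0.36, and the Cy3 spread was the larger in 78.1%. Over all 59 potassium channel genes that share was 81.4%, close to the background. The signals were normalised by the authors' software within arrays and not between them, which limits these comparisons of levels across arrays.

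**Figure D5:**
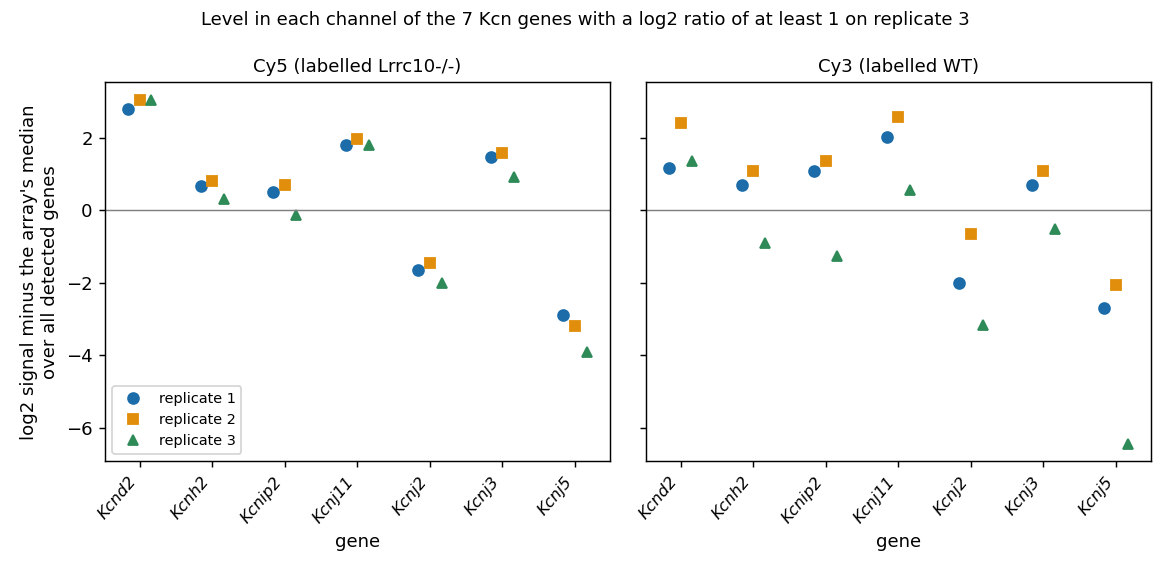
Log2 signal relative to the array's median over all detected genes for the 7 genes with a log2 ratio of at least 1 on replicate 3, in Cy5 (left) and Cy3 (right), one symbol per replicate. *Kcnip2* spans 0.71 to -0.13 in Cy5 and 1.36 to -1.27 in Cy3, with replicate 3 lowest in both. The Cy3 signal of *Kcnj5* on replicate 3 was not well above background.

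Cell type markers varied between the arrays as well. Of the 8 ventricular markers 4 (*Myl2*, *Myl3*, *Tnni3* and *Tnnt2*) were brighter in Cy3 on all arrays, against 12.1% of all detected genes, and the probes of these 4 were saturated on at least 1 array. *Myh6*, the alpha myosin heavy chain gene and also saturated, had log2 ratios of 0.03, -0.48 and 1.45, and was the only one of the 8 above 0 on replicate 3. The median of the 8 was -0.16, -0.48 and -0.21 on replicates 1 to 3. The summed signal of the 8 markers was 964341 to 1289010 in Cy5 and 1055260 to 1649090 in Cy3. Of the 5 fat markers, 4 had a probe and 3 were detected, *Ucp1* not, while *Plin1* had no probe under that name. *Adipoq* had log2 ratios of 1.52, -0.72 and -1.52 and *Cfd* had 2.26, -0.28 and -1.91. Both were of opposite sign to the median of the cardiac list on replicates 1 and 3 and shared its sign on replicate 2. *Cidea* had -0.23, -0.09 and -0.34, of the same sign as that median on replicates 1 and 2. The summed fat signal was 18679 to 30418 in Cy5 and 21651 to 32534 in Cy3, nearly all of it from *Cidea*. All 5 smooth muscle markers were detected, with sums of 33640 to 51100 in Cy5 and 31682 to 75052 in Cy3, most of each from *Acta2* and *Des*. Their median log2 ratio was -0.02, -0.45 and 0.58 on replicates 1 to 3.

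The endothelial markers (5 of 5 detected) summed to 22925 to 34022 in Cy5 and 24909 to 44287 in Cy3. The fibroblast markers (5 of 5) summed to 113151 to 174851 in Cy5 and 105146 to 176729 in Cy3. The skeletal muscle markers (6 of 6) summed to 176088 to 250557 in Cy5 and 148804 to 358851 in Cy3. Most of each sum came from *Myh4*, whose probe was saturated, while *Myh1* ran from 37.0 to 62.6 and *Tnnt3* from 51.6 to 90.5 over both channels. The red blood cell markers (3 of 3) summed to 216701 to 351903 in Cy5 and 207676 to 287032 in Cy3. None of the marker genes passed the adjusted limma test. The consistent selection took 0 marker genes in Cy5, against 0.405% of all tested probes, and in Cy3, against 0.51%, it took *Myl2* and *Tnnt2* of the 8 ventricular markers and *Nppa* of the 5 detected atrial markers. The part of cell make-up in the potassium channel values was not tested.

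Genes that act with the channels were measured from a list of 24, of which 21 were detected; *Lrrc26*, *Lrrc52* and *Lrrc55*, leucine-rich repeat subunits of BK channels, were not. Of the 23 tested, 0 passed the adjusted limma test in either direction. The consistent selection took 0 of them in Cy5, against 0.405% of all tested probes, and 1 in Cy3, against 0.51%. The median log2 ratio was 0.02, and by array 0.04, -0.49 and 0.19. By sign, 3 of the 21 (*Dlg1*, *Klf15* and *Lrrc38*) had Cy5 above Cy3 on each array, against 9.59% of all detected genes, and 1 (*Irx5*) had the reverse, against 12.1%.

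*Irx5*, the selected gene, encodes an Iroquois transcription factor known to repress *Kcnd2* in the mouse ventricle. Its signals were 217, 282 and 222 in Cy5 and 355, 571 and 338 in Cy3, with no overlap between channels. The log2 ratios were -0.71, -1.01 and -0.61, a mean of -0.78 ± 0.21 (limma, adjusted p = 1.00). *Irx5* was thus brighter in the channel in which *Kcnd2* was dimmer on each array, a statement of signs over 3 arrays only. By size, *Irx5* differed most on replicate 2, where *Kcnd2* differed least, and a link between them was not tested. The related *Irx3* and *Irx4* had means of 0.04 and -0.22.

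*Klf15*, a circadian factor known to drive *Kcnip2*, had log2 ratios of 0.58, 0.32 and 0.20, a mean of 0.37 ± 0.20 (limma, adjusted p = 1.00), while *Kcnip2* changed sign between arrays. *Dpp6* and *Dpp10* encode dipeptidyl peptidase-like subunits of Kv4 channels. *Dpp6* had -0.04, 0.23 and -0.42 and *Dpp10* -0.80, 2.55 and 0.91. *Abcc8* and *Abcc9* encode the sulfonylurea receptors that join Kir6 pores in ATP-sensitive channels, and had means of -0.29 ± 0.53 and -0.33 ± 0.72. Their most negative array was replicate 2, at -0.89 and -1.15.

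The 28 genes that were not detected came from most groups. They held 8 other Kv genes (among them *Kcna3*, *Kcnc1*, *Kcnh1*, *Kcnh7*, *Kcnh8* and *Kcnq5*) and 6 silent subunits (*Kcnf1*, *Kcng3*, *Kcng4*, *Kcns1*, *Kcns2* and *Kcnv1*). Also undetected were 4 two-pore genes (*Kcnk1*, *Kcnk5*, *Kcnk7* and *Kcnk16*), the pore genes *Kcnd1*, *Kcnj1*, *Kcnj6*, *Kcnma1*, *Kcnn3* and *Kcnu1*, and the accessory genes *Kcnab3*, *Kcne2*, *Kcnip1* and *Kcnmb3*. Of all undetected probes, 43 were well above background on no array, 6 on 1 array and 5 on 2 arrays. The last were the nearest to the detection rule, with mean signals of 13.5 for *Kcnd1*, 12.9 for *Kcnk1*, 26.4 for *Kcng4* and 21.7 and 51.2 for the probes of *Kcnq5*. Just inside it, the dimmest detected probes were those of *Kcnip3* and *Kcnj10*, at 30.6 and 31.4. Of the 59 detected genes, 46 had a brightest probe whose Cy5 and Cy3 signals were both well above background on every array.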

How the data were processed

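Total RNA of whole hearts was measured on 3 two-colour Agilent arrays. The authors scanned them with Agilent Feature Extraction 9.1.3.1, whose deposited processed signal is a background-subtracted, dye-normalised intensity of each channel. Each file also holds the deposited log10 ratio of Cy5 over Cy3 and its p-value from the software's error model. The value table deposited beside the scanner files held the same ratios, with 1 value missing and a largest difference of 0.

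Ratios were turned to log2, outlier spots were left out, and spots of a probe were averaged. A probe of several spots was well above background where most of its spots were. Probes with a geometric mean signal of at least 20 over both channels were tested with limma 3.58.1 in R 4.3.3 (intercept, intensity trend, two-sided, Benjamini-Hochberg over 29606 probes), after a check on simulated data. The consistent selection took the ratio of at least 1.2 and the signal of at least 20 from the methods, with the scanner software's p under 0.05 on each array in place of the p of the methods' clustering. All arrays shared a slide and a scan.

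Named genes were the cardiac current list, the 4 genes of each direction with the largest mean among those of 1 sign on all arrays, selected or called genes, and the 3 genes whose probes disagreed most. The members and lists (cardiac currents, partners, markers) were chosen with earlier results of these data known. The relative level of each channel was added after values were seen. Alternatives were normexp (offset 50) with loess or with median centring, each array left out, 2 filters, saturated probes left out, no trend, the methods' t-test, the value table, a ratio of 1.5, and other probe and name rules. For arrays, their number limits the precision. The methods name the arrays biological replicates, and the p-values measure the spread between these arrays only. The values of a few genes of these lists are not reported here.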

Additional observations from a re-analysis of the deposited data

How the results depend on the processing

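Directions of *Kcnd2*, *Kcnj3*, *Kcnk2*, *Kcnt2*, *Kcna4*, *Kcna5*, *Kcne1*, *Kcnmb4*, *Kcnmb2*, *Kcnt1* and *Lrrc10* held under every alternative run that gave a value. The selection kept *Kcnd2*, *Kcnj3* and *Kcnk2* under all of them except a ratio of at least 1.5, which kept 1 probe, that of *Kcnd2*. Both normexp alternatives lost *Kcnt2*. The *Kcnd2* adjusted p ran from 0.0174, without replicate 3, to 1.00.

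Leaving out 1 array gave 0 to 3 potassium channel probes called by limma in Cy5 and 0 to 1 in Cy3, 4 to 9 and 2 selected (1.94% to 3.96% and 1.49% to 2.25% of all tested probes), and 10 to 19 and 9 to 19 genes of 1 sign (20.9% to 24.7% and 21.3% to 29.0% of all detected genes), since only 2 arrays then had to share it. Without replicate 3 the calls were *Kcnd2*, *Kcnip4* and *Kcnt1* (1.38, adjusted p = 0.00136) in Cy5 and *Kcnj14* in Cy3, as 378 and 130 of all probes were called. The *Kcnj14* ratios left in that fit, -3.82 and 0.45, had opposite signs. Over the 3 pairs of arrays *Kcnip2* ran from -0.62 to 0.24, *Kcnh2* from -0.14 to 0.57, *Kcnj2* from -0.21 to 0.72, *Kcnj12* from -0.062 to 0.13, *Kcnj5* from -0.64 to 1.15, *Kcnj8* from -0.13 to 0.0089, *Kcnj11* from -0.42 to 0.48, *Kcnk3* from -0.23 to 0.34, *Kcnj9* from -0.25 to 0.75 and *Kcnc2* from -0.32 to 0.13. The lowest value came without replicate 3 for *Kcnip2*, *Kcnh2*, *Kcnj2*, *Kcnj12*, *Kcnj5*, *Kcnj11* and *Kcnk3*. Without replicate 2, *Lrrc10* (5.28) had an adjusted p of 0.0916, and it also missed the threshold with no signal filter and by the methods' t-test.

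Normexp with median centring and no loess shifted all tested probes to a median of 0.15, the median of detected potassium channel genes to 0.15 (all detected genes 0.20) and the genes brighter in Cy5 on all arrays to 24 (45.2% of all detected genes). There *Kcnd3* was 0.10, *Kcnn1* 0.18, *Kcnip2* 0.32, *Kcnq1* 0.34, *Kcnj5* -0.037 and *Kcnj8* 0.43. Normexp with loess gave *Kcnip2* 0.030, *Kcnj5* -0.032, *Kcnj9* -0.073 and *Kcnc2* 0.00054. The cause of these changes was not tested. No paired analysis was possible because each value already is a ratio within an array. The slide could not be used as a block, since all arrays shared 1 slide. *Kcnmb4*, *Kcnj5* and *Kcnc2* had no value under the filter on both channels, which they did not pass.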
